A study of Danio rerio with 8 samples.

Results

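The slc25 family was examined in sorted heart cells of zebrafish larvae. Every gene of the deposited table whose symbol begins with *slc25a* and a number was taken as a member, which gave 52 of 21286 genes. RNA sequencing was performed on epicardial cells (EpiCs) and cardiomyocytes (CMs) sorted from hearts at 96 hours post fertilization (hpf). All larvae carried TgBAC(tcf21:NLS-EGFP) and Tg(myl7:mCherry-CAAX), which mark EpiCs and CMs. The 4 groups were *tcf21-/-* CMs, *tcf21+/+* CMs, *tcf21-/-* EpiCs and *tcf21+/+* EpiCs, with 2 libraries each. *tcf21* encodes a transcription factor of the epicardium, and the mutant allele is a frameshift deletion.

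Several features of the design limit these groups. *tcf21-/-* larvae came from intercrosses of heterozygotes and were picked for missing head muscles and for hearts with substantial epicardial coverage of the ventricle, whereas *tcf21+/+* larvae came from intercrosses of their wild-type siblings, so that genotype and parentage cannot be told apart. Cells were sorted from pooled hearts, and the study collected them over several sessions. Cells with both reporters were kept with the EpiCs. The libraries are labelled as replicates, but nothing ties them to separate sets of parents, so P values measure the spread between these libraries. In sorted pools, fewer cells of a type and less RNA per cell cannot be told apart. What 1 read was worth in each library could be read from the steps between low values, and gave an estimated 8320000 and 9390000 reads in *tcf21-/-* CMs and 6440000 and 8640000 reads in *tcf21+/+* CMs, against 10570000 and 11400000 reads in *tcf21-/-* EpiCs and 11340000 and 9860000 reads in *tcf21+/+* EpiCs. *tcf21* itself was at 5 and 12 in *tcf21-/-* CMs and at 80 and 28 in *tcf21+/+* CMs, against 1636 and 1454 in *tcf21-/-* EpiCs and at 1600 and 1851 in *tcf21+/+* EpiCs. These values follow the sorted cell type, and a small deletion in the coding sequence cannot be checked from them.

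Marker genes separated the sorted populations. The summed value of the CM markers (9 of 10 listed symbols in the table) was 86596 to 93042 in CMs and 9831 to 14484 in EpiCs, and that of the 8 EpiC markers was 824 to 1172 in CMs and 26571 to 30190 in EpiCs. Single CM markers varied widely. Their log2 fold change (log2FC) of CMs over EpiCs ran from 0.67 to 6.63 in *tcf21-/-* hearts (median 1.41). In *tcf21+/+* hearts it ran from 0.93 to 4.96 (median 1.39). *myl7*, whose promoter drives the CM reporter, was at 2466 to 3718 in CMs and 1222 to 1377 in EpiCs. No gene of either list was at 0 in all libraries of a cell type. The 8 endothelial and endocardial markers summed to 795 to 1532 in CMs and 3592 to 5231 in EpiCs, but they differed in direction. Of the 7 tested, 1 was called higher and 3 lower in CMs in each genotype, by the limits given below. *cdh5* was at 291 to 651 in CMs and 1 to 40 in EpiCs, whereas *kdrl* was at 14 to 58 in CMs and 1356 to 2140 in EpiCs. The 7 macrophage and neutrophil markers in the table, of 8 listed, summed to 1724 and 2466 in *tcf21-/-* CMs, with 481 and 616 in *tcf21+/+* CMs, against 51 and 50 in *tcf21-/-* EpiCs, with 20 and 22 in *tcf21+/+* EpiCs, and *ptprc* was at 0 in all EpiC libraries. The erythroid markers (12 of 13 listed symbols) summed to 72 to 809 in CMs and 14 to 738 in EpiCs. The part of these other cell types in the differences below was not tested.

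Solute carriers of family 25 sit in the inner membrane of mitochondria, with a few exceptions in other membranes, and move metabolites, nucleotides, phosphate, cofactors and ions between the cytosol and the matrix. They let ATP leave and ADP and phosphate enter, they carry the intermediates of the malate-aspartate shuttle and the acylcarnitines that are oxidised in the matrix, and they supply cofactors that cannot be made inside. Heart muscle relies heavily on mitochondria and on the oxidation of fatty acids. The roles given below are those known for the mammalian or yeast proteins.

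The 52 genes lay on 22 chromosomes (GRCz11, Ensembl release 99). *slc25a6* and *slc25a24l* did not reach a mean value of 10 and were not tested, which left 50 members among 16077 genes. *slc25a6*, an ADP/ATP carrier, was at 0 in all 4 CM libraries, at 0 and 1 in *tcf21-/-* EpiCs and at 0 and 8 in *tcf21+/+* EpiCs. *slc25a24l* was likewise at 0 in all CM libraries, at 3 and 0 in *tcf21-/-* EpiCs and at 7 and 0 in *tcf21+/+* EpiCs. 5 members overlap another annotated gene on the opposite strand, *slc25a4*, *slc25a18*, *slc25a27* and *slc25a32a* among them. Reads assigned to several genes had been discarded, so that part of the reads of these 5 members may be missing. Values are read counts divided by 1 factor per library, and since they are not per transcript length, levels are compared between groups and not between genes.

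**Figure D1:**
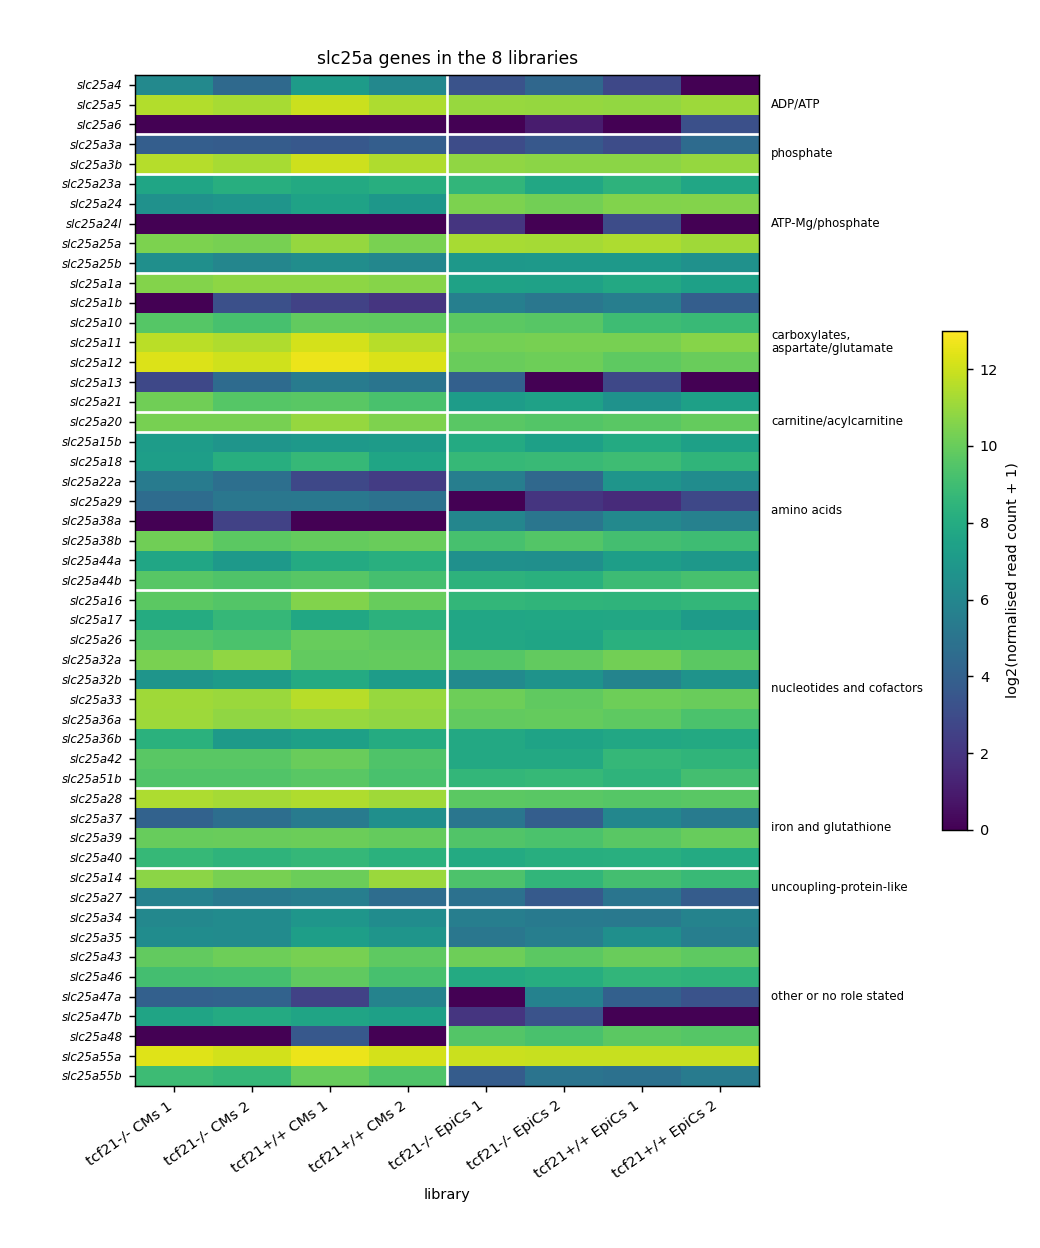
Log2(value + 1) of 51 *slc25a* genes (rows, by transport role) in the 8 libraries (columns, CMs left and EpiCs right). Most rows are brighter on the CM side (*slc25a12* and *slc25a1a*, for example), while *slc25a24*, *slc25a25a*, *slc25a38a* and *slc25a48* are brighter on the EpiC side, and *slc25a6* and *slc25a24l* are near 0 throughout.

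Which carriers differ between the myocardium and the epicardium was asked first, within each genotype. More members were higher in CMs than lower. Fold changes are given as log2FC of CMs over EpiCs on the log2(value + 1) scale, where the fitted change of genes with low values depends on the pseudocount and is no bound, and a gene was called at an adjusted P (Padj, limma) below 0.05 and an absolute log2FC of at least 0.59. Among *tcf21-/-* libraries, 22 of 50 members were called higher in CMs and 5 lower, whereas 18% and 21% of all genes tested were. Among *tcf21+/+* libraries the counts were again 22 higher and 5 lower, against 18.8% and 22.9% of all genes. The median log2FC of the members was 0.78 in *tcf21-/-* and 0.9 in *tcf21+/+* hearts, and that of all genes was −0.09 and −0.11. 18 members were called higher in both genotypes (14.7% of all genes) and 4 lower (16.9%). 5 members were called in *tcf21-/-* hearts only (7.28% of all genes), 5 in *tcf21+/+* hearts only (10.1%), and 18 in neither (51%). All 4 CM libraries lay above all 4 EpiC libraries for 26 members (22.9% of all genes) and below them for 7 (26.3%).

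Upper quartile scaling left these counts at 22 higher and 5 lower in each genotype. Cyclic loess normalization gave 20 higher and 4 lower in *tcf21-/-* CMs, and 24 and 5 in *tcf21+/+* CMs. Reads scaled to the library total gave 20 and 5, and 21 and 5. With these settings 16.2% to 20% of all genes were called higher and 19.5% to 24.9% lower. Fewer members were called higher when no scaling was used, which leaves differences in library depth in place. When estimated reads were compared without any scaling, the median of all genes shifted to −0.45 in *tcf21-/-* and −0.74 in *tcf21+/+* hearts. With this setting 14 members were called higher and 6 lower in *tcf21-/-* CMs (12.1% and 25% of all genes), and 11 higher and 7 lower in *tcf21+/+* CMs (10.4% and 33.7%). The members' median stayed above 0, at 0.42 and 0.27. 10 members (15.3% of all genes) kept their call in both genotypes under all 17 alternatives tried, namely *slc25a1a*, *slc25a11*, *slc25a12*, *slc25a21*, *slc25a24*, *slc25a26*, *slc25a28*, *slc25a47b*, *slc25a48* and *slc25a55b*.

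**Figure D2:**
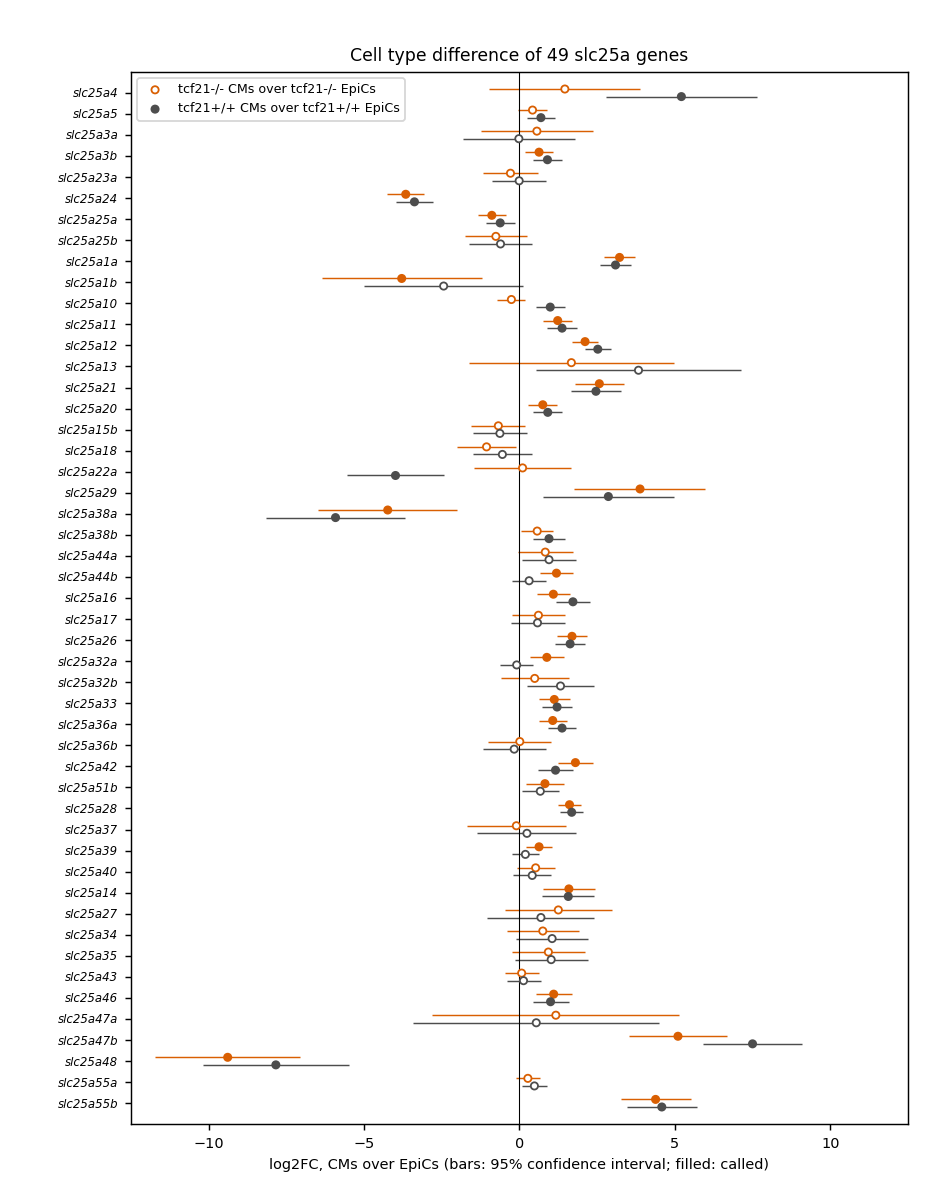
Log2FC of CMs over EpiCs for 49 of the *slc25a* genes tested (rows), in *tcf21-/-* (orange) and *tcf21+/+* hearts (grey), with 95% confidence intervals; filled points were called. 21 of the genes drawn are filled to the right of 0 and 5 to the left in each genotype, with *slc25a47b* (5.1 and 7.5) and *slc25a48* (−9.39 and −7.84) farthest out; their fitted values against libraries at 0 depend on the pseudocount and are no bounds.

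The carriers of carboxylates, aspartate and glutamate held several of the largest differences. In *tcf21-/-* CMs 4 of 7 were called higher and 1 lower (18% and 21% of all genes), with a class median log2FC of 1.67. In *tcf21+/+* CMs 5 were called higher and 0 lower (18.8% and 22.9% of all genes), with a class median of 2.46. *slc25a12* (chromosome 6, 3961319 to 3982783) encodes the calcium-regulated aspartate/glutamate carrier of the malate-aspartate shuttle. It was at 5046 and 4296 in *tcf21-/-* CMs and at 6233 and 4879 in *tcf21+/+* CMs, against 1029 and 1128 in *tcf21-/-* EpiCs and at 886 and 1044 in *tcf21+/+* EpiCs. The lowest CM library was thus well above the highest EpiC library. The log2FC was 2.11 in *tcf21-/-* (SE 0.18, Padj = 5.23e-05) and 2.52 in *tcf21+/+* hearts (SE 0.18, Padj = 2.46e-05). Its close relative *slc25a13* was at 6 and 22 in *tcf21-/-* CMs and at 42 and 32 in *tcf21+/+* CMs, against 15 and 0 in *tcf21-/-* EpiCs and at 6 and 0 in *tcf21+/+* EpiCs. The libraries overlapped, and no call was made (Padj = 0.402 in *tcf21-/-* and 0.062 in *tcf21+/+* hearts). In *tcf21-/-* hearts its log2FC of 1.67 turned to −0.33 without *tcf21-/-* EpiCs replicate 2.

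*slc25a11* (chromosome 5, 68076913 to 68093169), which exchanges oxoglutarate for malate in the same shuttle, was at 3254 and 2770 in *tcf21-/-* CMs and at 4509 and 3075 in *tcf21+/+* CMs, against 1267 and 1295 in *tcf21-/-* EpiCs and at 1312 and 1585 in *tcf21+/+* EpiCs. Groups did not overlap, and the log2FC was 1.23 in *tcf21-/-* (SE 0.21, Padj = 0.00178) and 1.37 in *tcf21+/+* hearts (SE 0.21, Padj = 0.00091). *slc25a1a* (chromosome 10, 23060391 to 23069323) encodes a citrate carrier, which exports the citrate used for lipid synthesis. It was at 1553 and 1743 in *tcf21-/-* CMs and at 1766 and 1590 in *tcf21+/+* CMs, against 178 and 173 in *tcf21-/-* EpiCs and at 227 and 168 in *tcf21+/+* EpiCs. The log2FC was 3.22 in *tcf21-/-* (SE 0.22, Padj = 2.3e-05) and 3.09 in *tcf21+/+* hearts (SE 0.22, Padj = 2.46e-05). *slc25a21*, an oxodicarboxylate carrier, was at 1155 and 762 in *tcf21-/-* CMs and at 829 and 610 in *tcf21+/+* CMs, against 143 and 172 in *tcf21-/-* EpiCs and at 98 and 168 in *tcf21+/+* EpiCs. It was called in both genotypes (log2FC 2.57 and 2.46, SE 0.35 each, Padj = 0.000556 and 0.000651). For both genes every CM library lay well above every EpiC library.

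The other 2 genes of this class behaved differently. *slc25a1b*, the second citrate carrier gene, was at 0 and 8 in *tcf21-/-* CMs and at 5 and 3 in *tcf21+/+* CMs, against 48 and 34 in *tcf21-/-* EpiCs and at 46 and 14 in *tcf21+/+* EpiCs. All CM libraries lay below all EpiC libraries. It was called lower in *tcf21-/-* CMs (log2FC −3.79, SE 1.12, Padj = 0.0261) and not in *tcf21+/+* CMs (−2.44, Padj = 0.113), and the call was lost without *tcf21-/-* EpiCs replicate 1 (−3.54, Padj = 0.123), without *tcf21-/-* EpiCs replicate 2 (−4.03, Padj = 0.0884) or without *tcf21-/-* CMs replicate 1 (−2.2, Padj = 0.149). *slc25a10*, the dicarboxylate carrier, was called higher in *tcf21+/+* CMs (log2FC 0.99, SE 0.2, Padj = 0.00382) and had a log2FC of −0.26 in *tcf21-/-* CMs (Padj = 0.333). Without scaling its *tcf21+/+* call ended (0.36, Padj = 0.223). Its values by genotype are described below.

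Of the carriers of the ATP cycle, *slc25a3b* (chromosome 25, 3306620 to 3321365), which imports phosphate, was at 2971 and 2546 in *tcf21-/-* CMs and at 4111 and 2804 in *tcf21+/+* CMs, against 1824 and 1730 in *tcf21-/-* EpiCs and at 1693 and 1967 in *tcf21+/+* EpiCs. It was called higher in CMs of both genotypes (log2FC 0.63 and 0.9, SE 0.2 each, Padj = 0.0356 and 0.00702). Leaving out any 1 of the 4 *tcf21-/-* libraries ended the call in that genotype (log2FC 0.52 to 0.74, Padj = 0.0724 to 0.191), and leaving out *tcf21+/+* EpiCs replicate 1 ended it in the other (0.79, Padj = 0.0696). *slc25a3a*, the other phosphate carrier gene, was low, at 14 and 13 in *tcf21-/-* CMs and at 11 and 14 in *tcf21+/+* CMs, against 7 and 11 in *tcf21-/-* EpiCs and at 7 and 22 in *tcf21+/+* EpiCs. It was not called (log2FC 0.56, Padj = 0.609 in *tcf21-/-* and −0.02, Padj = 0.989 in *tcf21+/+* hearts), and the sign in *tcf21+/+* hearts turned with cyclic loess normalization (1.57).

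*slc25a5* (chromosome 14, 32881625 to 32884138), an ADP/ATP carrier, was at 2896 and 2481 in *tcf21-/-* CMs and at 3998 and 2711 in *tcf21+/+* CMs, against 2059 and 1940 in *tcf21-/-* EpiCs and at 1913 and 2185 in *tcf21+/+* EpiCs. All CM libraries were higher, and the gene was called in *tcf21+/+* hearts (log2FC 0.69, SE 0.2, Padj = 0.0239) and not in *tcf21-/-* hearts (0.42, SE 0.2, Padj = 0.132). The call was lost without *tcf21+/+* EpiCs replicate 1 (log2FC 0.59, Padj = 0.152), without *tcf21+/+* EpiCs replicate 2 (0.78, Padj = 0.0729) or without *tcf21+/+* CMs replicate 1 (0.41, Padj = 0.0756). *slc25a4*, the ADP/ATP carrier that predominates in mammalian muscle, was at 68 and 21 in *tcf21-/-* CMs and at 140 and 67 in *tcf21+/+* CMs, against 9 and 19 in *tcf21-/-* EpiCs and at 6 and 0 in *tcf21+/+* EpiCs. It was called in *tcf21+/+* hearts (log2FC 5.21, SE 1.07, Padj = 0.00438), with a log2FC of 1.46 in *tcf21-/-* hearts (Padj = 0.313).

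For these abundant carriers, the read counts behind the values were flatter than counting error allows. Dividing each value by what 1 read was worth in its library gave an estimated 2538 and 2547 reads of *slc25a5* in *tcf21-/-* CMs, with 2542 and 2553 in *tcf21+/+* CMs, against 2441 and 2440 in *tcf21-/-* EpiCs, with 2464 and 2434 in *tcf21+/+* EpiCs. The variance of the 4 read counts was 0.0158 times their mean in CMs and 0.0723 times in EpiCs, where independent counting would give a ratio of about 1. *slc25a3b* had ratios of 0.0945 in CMs and 0.0667 in EpiCs, and *slc25a11* a ratio of 0.184 in CMs. Among genes with at least 500 mean reads, 3 of 25 members in CMs and 2 of 21 in EpiCs had a ratio below 0.2, as did 78 of 4916 and 58 of 6382 of all genes, and 11 of 76 and 11 of 75 ribosomal protein genes. The cause was not tested. Without scaling, the log2FC of *slc25a5* was 0.06 in both genotypes and that of *slc25a3b* was 0.27 in *tcf21-/-* and 0.26 in *tcf21+/+* hearts, below the limit for a call. The value of 1 read, CMs over EpiCs, had a log2 ratio of 0.36 in *tcf21-/-* and 0.63 in *tcf21+/+* hearts. This ratio enters the log2FC of all genes, not only of these, and is the arithmetic remainder of the differences above. *slc25a11* (0.86 and 0.74) and *slc25a12* (1.75 and 1.89) were called without scaling as well.

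**Figure D3:**
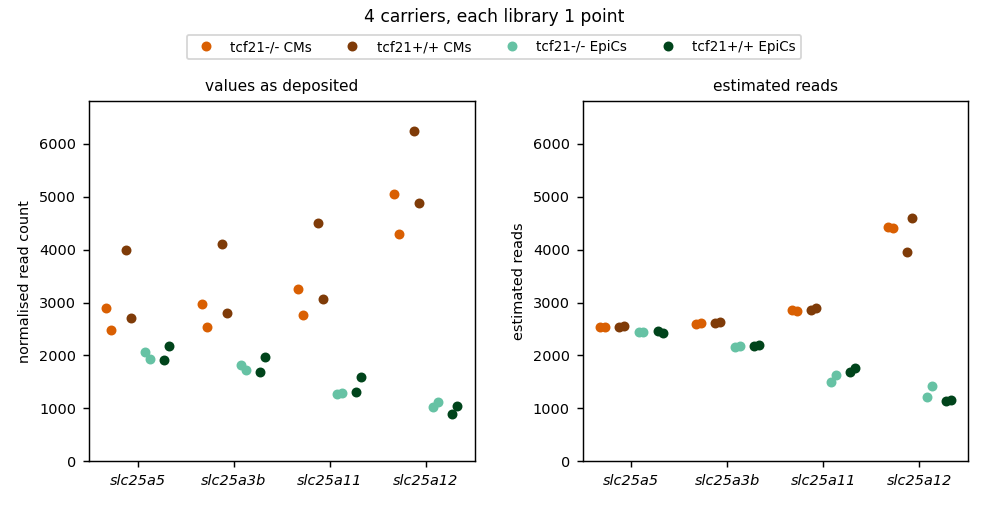
Normalised read counts (left) and estimated reads (right) of *slc25a5*, *slc25a3b*, *slc25a11* and *slc25a12*, 1 point per library. The values of *slc25a5* spread between 1913 and 3998, while its estimated reads lie between 2434 and 2553 in all 8 libraries; *slc25a12* stays separated between cell types on both scales.

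The calcium-regulated ATP-Mg/phosphate carriers, which set the adenine nucleotide content of the matrix, were the class with lower values in CMs. 2 of the 4 tested were called lower in each genotype (21% of all genes in *tcf21-/-* and 22.9% in *tcf21+/+* hearts). None was called higher, and all 4 had a log2FC below 0 (with cyclic loess normalization *slc25a23a* turned to 0.11 in *tcf21+/+* hearts). *slc25a24* (chromosome 20, 34653916 to 34670236) was at 94 and 108 in *tcf21-/-* CMs and at 176 and 118 in *tcf21+/+* CMs, against 1365 and 1215 in *tcf21-/-* EpiCs and at 1474 and 1556 in *tcf21+/+* EpiCs. Every CM library lay far below every EpiC library, with a log2FC of −3.66 in *tcf21-/-* (SE 0.26, Padj = 2.63e-05) and −3.38 in *tcf21+/+* hearts (SE 0.26, Padj = 3.17e-05). *slc25a25a* was at 1376 and 1279 in *tcf21-/-* CMs and at 1950 and 1328 in *tcf21+/+* CMs, against 2502 and 2415 in *tcf21-/-* EpiCs and at 2688 and 2284 in *tcf21+/+* EpiCs. The groups did not overlap, yet the differences were small (log2FC −0.89, SE 0.2, Padj = 0.0076 in *tcf21-/-* and −0.62, SE 0.2, Padj = 0.035 in *tcf21+/+* hearts). The *tcf21-/-* call was lost without either EpiC library (Padj = 0.0598 and 0.0513) or without *tcf21-/-* CMs replicate 2 (0.0525), and the *tcf21+/+* call without either EpiC library (0.196 and 0.0775) or without *tcf21+/+* CMs replicate 2 (0.0945). *slc25a23a* and *slc25a25b* had log2FC values of −0.29 and −0.76 in *tcf21-/-* hearts and −0.01 and −0.61 in *tcf21+/+* hearts, and were not called.

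*slc25a20* (chromosome 22, 105376 to 109686) is the carnitine/acylcarnitine carrier, through which long-chain fatty acids reach the matrix. It was at 1310 and 1279 in *tcf21-/-* CMs and at 1965 and 1446 in *tcf21+/+* CMs, against 817 and 724 in *tcf21-/-* EpiCs and at 820 and 979 in *tcf21+/+* EpiCs. All CM libraries were higher, and it was called in both genotypes (log2FC 0.75 and 0.91, SE 0.2 each, Padj = 0.0167 and 0.0063). Leaving out any 1 of the 4 *tcf21-/-* libraries ended that call (log2FC 0.66 to 0.84, Padj = 0.0557 to 0.111), as leaving out *tcf21+/+* EpiCs replicate 1 ended the other (0.78, Padj = 0.0549). Without scaling neither call was made (log2FC 0.39 and 0.28).

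Amino acid carriers were called in both directions, as were all genes. In *tcf21-/-* CMs 2 of 8 were called higher and 1 lower (18% and 21% of all genes). In *tcf21+/+* CMs 2 were called higher and 2 lower (18.8% and 22.9% of all genes). *slc25a38a* (chromosome 3, 4644031 to 4663602) and *slc25a38b* (chromosome 6, 7721292 to 7735153) are copies of the gene for the glycine carrier that supplies haem synthesis. *slc25a38a* was at 0 and 5 in *tcf21-/-* CMs and at 0 and 0 in *tcf21+/+* CMs, against 62 and 33 in *tcf21-/-* EpiCs and at 68 and 52 in *tcf21+/+* EpiCs. Because both *tcf21+/+* CM libraries were at 0, the level there was at least 15.2-fold lower than in *tcf21+/+* EpiCs, taking 3 reads per library as the floor. The call was made in both genotypes (Padj = 0.00852 in *tcf21-/-* and 0.00148 in *tcf21+/+* hearts), and was lost in *tcf21-/-* hearts without *tcf21-/-* EpiCs replicate 1 (log2FC −3.79, Padj = 0.0569). *slc25a38b* ran the other way, at 1153 and 836 in *tcf21-/-* CMs and at 985 and 1051 in *tcf21+/+* CMs, against 592 and 739 in *tcf21-/-* EpiCs and at 556 and 497 in *tcf21+/+* EpiCs (log2FC 0.57, Padj = 0.072 and 0.95, Padj = 0.00812).

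Of the remaining amino acid carriers, *slc25a29*, a carrier of basic amino acids, was at 23 to 36 in CMs and 0 to 6 in EpiCs and was called higher in both genotypes (log2FC 3.88 and 2.86, Padj = 0.00976 and 0.0351). *slc25a44b*, a carrier of branched-chain amino acids, was called higher in *tcf21-/-* CMs (log2FC 1.19, Padj = 0.00397) and had a log2FC of 0.31 in *tcf21+/+* CMs (Padj = 0.328). *slc25a22a*, a glutamate carrier, was called lower in *tcf21+/+* CMs (log2FC −3.99, SE 0.68, Padj = 0.00175) and had a log2FC of 0.1 in *tcf21-/-* CMs (Padj = 0.925). *slc25a15b* for ornithine, *slc25a18* for glutamate and *slc25a44a* were not called, with log2FC values of −0.68, −1.06 and 0.83 in *tcf21-/-* hearts and −0.63, −0.55 and 0.95 in *tcf21+/+* hearts.

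The carriers of nucleotides and cofactors were the largest class and were called in 1 direction only. 8 of 11 were called higher in *tcf21-/-* CMs (18% of all genes) and 6 of 11 in *tcf21+/+* CMs (18.8%). None was called lower (21% and 22.9% of all genes), and the medians were 1.07 and 1.21. Without scaling 4 were called higher in *tcf21-/-* CMs and 3 in *tcf21+/+* CMs, *slc25a16* and *slc25a26* among them in both genotypes. *slc25a26* (chromosome 11, 16216909 to 16324575) imports S-adenosylmethionine, the methyl donor of the matrix. It was at 723 and 639 in *tcf21-/-* CMs and at 1008 and 908 in *tcf21+/+* CMs, against 218 and 202 in *tcf21-/-* EpiCs and at 304 and 311 in *tcf21+/+* EpiCs (log2FC 1.69, Padj = 0.000356 and 1.63, Padj = 0.000391, SE 0.21 each). *slc25a42*, which carries coenzyme A, was at 807 and 803 in *tcf21-/-* CMs and at 1046 and 688 in *tcf21+/+* CMs, against 229 and 231 in *tcf21-/-* EpiCs and at 400 and 359 in *tcf21+/+* EpiCs (log2FC 1.8, Padj = 0.000576 and 1.16, Padj = 0.00521, SE 0.25 each). *slc25a16*, also linked to coenzyme A, was at 856 and 740 in *tcf21-/-* CMs and at 1485 and 1004 in *tcf21+/+* CMs, against 386 and 362 in *tcf21-/-* EpiCs and at 352 and 390 in *tcf21+/+* EpiCs. Its log2FC was 1.09 in *tcf21-/-* (SE 0.24, Padj = 0.00628) and 1.72 in *tcf21+/+* hearts (SE 0.24, Padj = 0.00055). For all 3 genes the cell types did not overlap.

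*slc25a36a*, a pyrimidine nucleotide carrier, was at 2219 and 1834 in *tcf21-/-* CMs and at 2004 and 1837 in *tcf21+/+* CMs, against 951 and 964 in *tcf21-/-* EpiCs and at 873 and 634 in *tcf21+/+* EpiCs (log2FC 1.07, Padj = 0.00283 and 1.37, Padj = 0.000733). The related *slc25a33* was also called in both genotypes (log2FC 1.12 and 1.21). *slc25a32a*, a carrier of folate and flavin cofactors, and *slc25a51b*, the NAD carrier, were called in *tcf21-/-* CMs only (log2FC 0.88, Padj = 0.0168 and 0.82, Padj = 0.0361), against −0.09 and 0.67 in *tcf21+/+* CMs. The NAD carrier call was lost under 8 of the 17 alternatives. *slc25a17*, a peroxisomal carrier of cofactors, *slc25a32b* and *slc25a36b* were not called in either genotype.

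Iron and glutathione carriers followed. *slc25a28* (chromosome 13, 40334727 to 40354313) encodes mitoferrin for most tissues, which brings iron into the matrix, and was at 2664 and 2436 in *tcf21-/-* CMs and at 2837 and 2297 in *tcf21+/+* CMs, against 850 and 818 in *tcf21-/-* EpiCs and at 766 and 830 in *tcf21+/+* EpiCs. The log2FC was 1.61 in *tcf21-/-* (SE 0.17, Padj = 0.000132) and 1.68 in *tcf21+/+* hearts (SE 0.17, Padj = 0.000101). *slc25a37*, the mitoferrin of red blood cells, stayed low, at 16 and 25 in *tcf21-/-* CMs and at 42 and 87 in *tcf21+/+* CMs, against 33 and 14 in *tcf21-/-* EpiCs and at 64 and 41 in *tcf21+/+* EpiCs. The cell types overlapped (log2FC −0.1, Padj = 0.924 and 0.24, Padj = 0.814), and the sign turned in *tcf21-/-* hearts with cyclic loess normalization (0.25) and in *tcf21+/+* hearts without scaling (−0.38). Of the glutathione carriers, *slc25a39* was called higher in *tcf21-/-* CMs (log2FC 0.63, Padj = 0.0282; lost under 9 of 17 alternatives) and *slc25a40* was not called.

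Among the 2 carriers that resemble uncoupling proteins, *slc25a14* was called higher in both genotypes (log2FC 1.59 and 1.57, Padj = 0.00803 and 0.00793) and *slc25a27* was low and not called. The 9 members with other or no stated roles held the widest contrasts, with 3 called higher and 1 lower in each genotype. Of all genes, 18% and 21% were called so in *tcf21-/-* hearts, and 18.8% and 22.9% in *tcf21+/+* hearts. *slc25a48* (chromosome 14, 25590603 to 25599002), linked to choline transport in mammals, was at 0 and 0 in *tcf21-/-* CMs and at 11 and 0 in *tcf21+/+* CMs, against 724 and 620 in *tcf21-/-* EpiCs and at 831 and 752 in *tcf21+/+* EpiCs. Its level in *tcf21-/-* CMs was at least 212-fold lower than in *tcf21-/-* EpiCs. The call was made in both genotypes (Padj = 0.000169 in *tcf21-/-* and 0.000413 in *tcf21+/+* hearts). *slc25a47b* (chromosome 17, 729423 to 730986) showed the reverse, at 191 and 243 in *tcf21-/-* CMs and at 193 and 167 in *tcf21+/+* CMs, against 3 and 9 in *tcf21-/-* EpiCs and at 0 and 0 in *tcf21+/+* EpiCs. Its level in *tcf21+/+* CMs was at least 71.7-fold higher than in *tcf21+/+* EpiCs (Padj = 7.26e-05), and in *tcf21-/-* hearts the log2FC was 5.1 (SE 0.7, Padj = 0.000577). *slc25a55b* (chromosome 23, 409578 to 419441) was at 479 and 406 in *tcf21-/-* CMs and at 1021 and 679 in *tcf21+/+* CMs, against 13 and 31 in *tcf21-/-* EpiCs and at 28 and 41 in *tcf21+/+* EpiCs (log2FC 4.38, Padj = 0.000203 and 4.58, Padj = 0.000153, SE 0.49 each). *slc25a46*, an outer membrane protein that acts in mitochondrial dynamics, was called higher in both genotypes (log2FC 1.1 and 1.0, Padj = 0.00817 and 0.012), and *slc25a34*, *slc25a35*, *slc25a43*, *slc25a47a* and *slc25a55a* were not called.

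Leaving out 1 library of the groups compared lowered the number of all genes called between cell types in most cases, as described below. Several calls of members described above ended when 1 library was left out. Because the 4 groups shared 1 fit, some also ended when a library of the other genotype was left out. For the *tcf21+/+* call of *slc25a25a* this was any 1 *tcf21-/-* library. For that of *slc25a5* it was either *tcf21-/-* EpiC library, and for that of *slc25a29* either *tcf21-/-* CM library. The *tcf21-/-* call of *slc25a3b* ended without either *tcf21+/+* EpiC library. In *tcf21-/-* hearts the call of *slc25a16* ended without *tcf21-/-* CMs replicate 1 (Padj = 0.0542), and that of *slc25a32a* without *tcf21-/-* CMs replicate 2 (0.132) or without *tcf21-/-* EpiCs replicate 1 (0.124). The *tcf21+/+* call of *slc25a38b* ended without *tcf21+/+* EpiCs replicate 2 (Padj = 0.0584). For *slc25a14* the *tcf21-/-* call ended without *tcf21-/-* CMs replicate 1 (Padj = 0.0665) or without *tcf21-/-* EpiCs replicate 2 (0.0807), and the *tcf21+/+* call without *tcf21+/+* EpiCs replicate 2 (0.0743). The *tcf21-/-* call of *slc25a46* ended without *tcf21-/-* EpiCs replicate 1 (log2FC 1.05). Its *tcf21+/+* call ended without *tcf21+/+* EpiCs replicate 1 (log2FC 1.04) or replicate 2 (0.96). *slc25a29* lost its *tcf21-/-* call without *tcf21-/-* CMs replicate 2 (Padj = 0.0623) or *tcf21-/-* EpiCs replicate 1 (0.0571), and its *tcf21+/+* call without *tcf21+/+* CMs replicate 1 (0.113), *tcf21+/+* CMs replicate 2 (0.0694) or *tcf21+/+* EpiCs replicate 1 (0.159). In *tcf21-/-* hearts *slc25a39* and *slc25a51b* lost theirs without any 1 of the 4 libraries (Padj = 0.0681 to 0.153 for *slc25a39* and 0.113 to 0.152 for *slc25a51b*). Without scaling between libraries, both calls of *slc25a36a* ended (log2FC 0.71, Padj = 0.0635 in *tcf21-/-* and 0.74, Padj = 0.0502 in *tcf21+/+* hearts), as did both calls of *slc25a14* (1.23, Padj = 0.103 and 0.94, Padj = 0.171). The *tcf21+/+* calls of *slc25a33* (0.58), *slc25a42* (0.53), *slc25a46* (0.37), *slc25a38b* (0.32) and *slc25a29* (2.31) ended in the same way, and so did the *tcf21-/-* calls of *slc25a32a* (0.52), *slc25a39* (0.27) and *slc25a51b* (0.45).

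Zebrafish retain many genes as duplicates, and 9 pairs of members are named a and b. The log2FC of the pair had opposite signs in both genotypes in 2 of them, *slc25a1* and *slc25a38*. *slc25a1b* and *slc25a38a* were the copies with a negative log2FC. The a and b copies of *slc25a25* lay close together instead, at −0.89 and −0.76 in *tcf21-/-* hearts and −0.62 and −0.61 in *tcf21+/+* hearts. *slc25a55a* was at 4362 to 6336 in CMs and 3875 to 4043 in EpiCs and was not called (log2FC 0.27, Padj = 0.252 and 0.48, Padj = 0.0516), whereas *slc25a55b* differed in both genotypes. *slc25a47a* was at 5 to 55 in CMs and 0 to 53 in EpiCs, overlapping between cell types, unlike *slc25a47b*. Reads that mapped to more than 1 place had been discarded, so near-identical stretches of a pair are missing from both values. The differences between the genes of a pair were not tested.

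**Figure D4:**
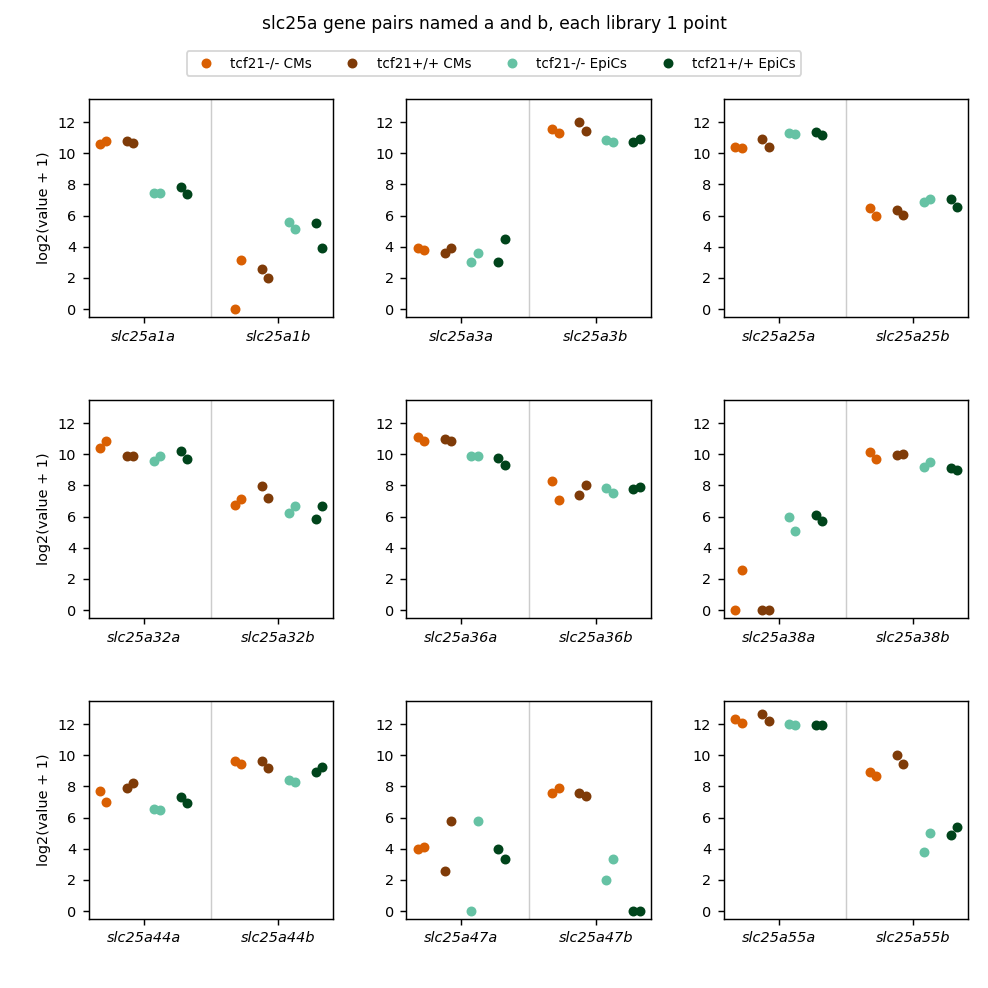
Log2(value + 1) of the 9 pairs of *slc25a* genes named a and b, 1 point per library, with CMs in brown and orange and EpiCs in green. In the *slc25a1* and *slc25a38* panels the gene with CMs above EpiCs is paired with one with CMs below EpiCs; in the *slc25a55* panel *slc25a55a* is nearly level (log2FC 0.27 and 0.48) and *slc25a55b* is not (4.38 and 4.58).

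Genes that work with the carriers, from lists chosen by hand, were set beside these values. Of 15 enzymes tested that supply or use the transported metabolites, 10 were called higher and 2 lower in *tcf21-/-* CMs (median log2FC 1.63). In *tcf21+/+* CMs 10 were called higher and 1 lower (1.72). Of all genes, 18% were called higher and 21% lower in *tcf21-/-* CMs, and 18.8% and 22.9% in *tcf21+/+* CMs. The cytosolic aspartate aminotransferase *got1*, a partner of *slc25a12* and *slc25a11* in the malate-aspartate shuttle, was at 6579 and 5596 in *tcf21-/-* CMs and at 8879 and 6170 in *tcf21+/+* CMs, against 710 and 823 in *tcf21-/-* EpiCs and at 1159 and 816 in *tcf21+/+* EpiCs (log2FC 2.99 and 2.93). The cytosolic malate dehydrogenase *mdh1ab* had a log2FC of 4.84 and 4.39, and the mitochondrial creatine kinase *ckmt2b* one of 7.19 and 7.44. The glycerol-3-phosphate dehydrogenase *gpd1c*, of the other NADH shuttle, was lower in CMs in both genotypes (−2.21, Padj = 0.0294 and −3.8, Padj = 0.0021). Its relatives differed. *gpd1b* was called lower in *tcf21-/-* CMs only (−2.11, against −0.49 in *tcf21+/+* CMs). *gpd1a* (0.56 and 0.4) and *gpd2* (−0.94 and −0.76) were not called.

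Of 28 other mitochondrial transport genes, 16 were called higher and 4 lower in *tcf21-/-* CMs (18% and 21% of all genes, list median 0.79). In *tcf21+/+* CMs 18 were called higher and 4 lower (18.8% and 22.9% of all genes, list median 0.97). Of the acyltransferases that work on either side of *slc25a20*, *cpt1ab* (log2FC 2.34 and 2.49), *cpt1b* (1.77 and 2.5) and *cpt2* (2.21 and 1.81) were called higher in CMs of both genotypes. *cpt1aa* had a log2FC of −0.47 in *tcf21-/-* CMs (Padj = 0.157) and was called lower in *tcf21+/+* CMs (−0.98, Padj = 0.0106). *mcu*, the pore of the calcium uniporter, was at 165 and 237 in *tcf21-/-* CMs and at 116 and 128 in *tcf21+/+* CMs, against 843 and 733 in *tcf21-/-* EpiCs and at 1039 and 1074 in *tcf21+/+* EpiCs (log2FC −1.99, Padj = 0.000439 and −3.11, Padj = 4.28e-05). Of 5 listed relatives of the family under other symbols, 3 were in the table. 2 of these were called higher in *tcf21-/-* CMs (18% of all genes) and 3 in *tcf21+/+* CMs (18.8%). *ucp3*, an uncoupling protein, was at 1045 and 1289 in *tcf21-/-* CMs and at 1456 and 1090 in *tcf21+/+* CMs, against 21 and 10 in *tcf21-/-* EpiCs and at 31 and 24 in *tcf21+/+* EpiCs (log2FC 6.22 and 5.48). *mtch2* had a log2FC of 1.1 and 1.15, and *ucp2* one of 0.43 (Padj = 0.129) and 0.63. The value of 1 read, *tcf21+/+* CMs over *tcf21+/+* EpiCs, had a log2 ratio of 0.63. It enters the log2FC of all genes, and its part in the call of *ucp2* was not tested. No comparison without scaling is given for the genes of these lists. None of these genes, in any of the 3 lists, was called between genotypes.

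Whether loss of *tcf21* changed the carriers was asked next, in each cell type. No member was called between *tcf21-/-* and *tcf21+/+* EpiCs (limma, lowest Padj = 0.229), where 0.0435% of all genes were called higher and 0.149% lower. At an unadjusted P below 0.05 there were 6 members, or 12%, against 8.46% of all genes. The median log2FC of *tcf21-/-* over *tcf21+/+* EpiCs was −0.07 for the members and −0.01 for all genes. Both *tcf21-/-* EpiC libraries lay above both *tcf21+/+* EpiC libraries for 5 members (21.6% of all genes) and below them for 12 (21.5%). No member was called between *tcf21-/-* and *tcf21+/+* CMs either (lowest Padj = 0.237), where 0.249% of all genes were called higher and 0.118% lower, and 4 members, or 8%, had an unadjusted P below 0.05, against 12.2% of all genes. The median there was −0.18, against 0 for all genes, and changed to 0.1, against 0.27, without scaling. Both libraries lay above both for 2 members (20.6%) and below both for 14 (19.3%). These orders were taken on the scaled values and depended on the scaling. In estimated reads some of the 14 overlapped, *slc25a10* among them, as given below. Others of them, such as *slc25a16* and *slc25a55b*, stayed below. Several members that overlapped on the values then lay higher in *tcf21-/-* CMs. For *slc25a28* there were 2335 and 2500.5 reads in *tcf21-/-* CMs, against 1803.7 and 2163.1 in *tcf21+/+* CMs. *slc25a21*, *slc25a36a*, *slc25a40*, *slc25a42*, *slc25a44b*, *slc25a51b* and *slc25a55a* were also among these. The lower order of most members was thus not kept on this scale. Members were not counted again in estimated reads. The counts over all genes moved with 1 library, since without *tcf21+/+* CMs replicate 2 there were 1358 calls between the CM groups in place of 59. Among these were 2 members, *slc25a48* (log2FC −3.58, Padj = 0.0152, a value of 11 left in *tcf21+/+* CMs set against 0 and 0 in *tcf21-/-* CMs) and *slc25a16* (−0.9, Padj = 0.047).

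The dicarboxylate carrier *slc25a10* (chromosome 1, 56421754 to 56435182) had the lowest P among members in EpiCs. It was at 854 and 781 in *tcf21-/-* EpiCs and at 491 and 443 in *tcf21+/+* EpiCs, and at 768 and 604 in *tcf21-/-* CMs and at 945 and 915 in *tcf21+/+* CMs. On these values the genotypes did not overlap in either cell type and lay in opposite order. In estimated reads the CM genotypes overlapped, at 673 and 620 in *tcf21-/-* CMs and at 601 and 862 in *tcf21+/+* CMs. The EpiC genotypes stayed apart. In EpiCs the log2FC was 0.81 (SE 0.2, Padj = 0.229) and in CMs −0.45 (SE 0.2, Padj = 0.413). The difference of the genotype effect, EpiCs minus CMs, was 1.26 (SE 0.28, Padj = 0.241), which did not pass the limit. No gene of the whole table was called for this difference (0%), with 1137 genes (7.07%) and 6 members (12%) at an unadjusted P below 0.05 in limma.

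**Figure D5:**
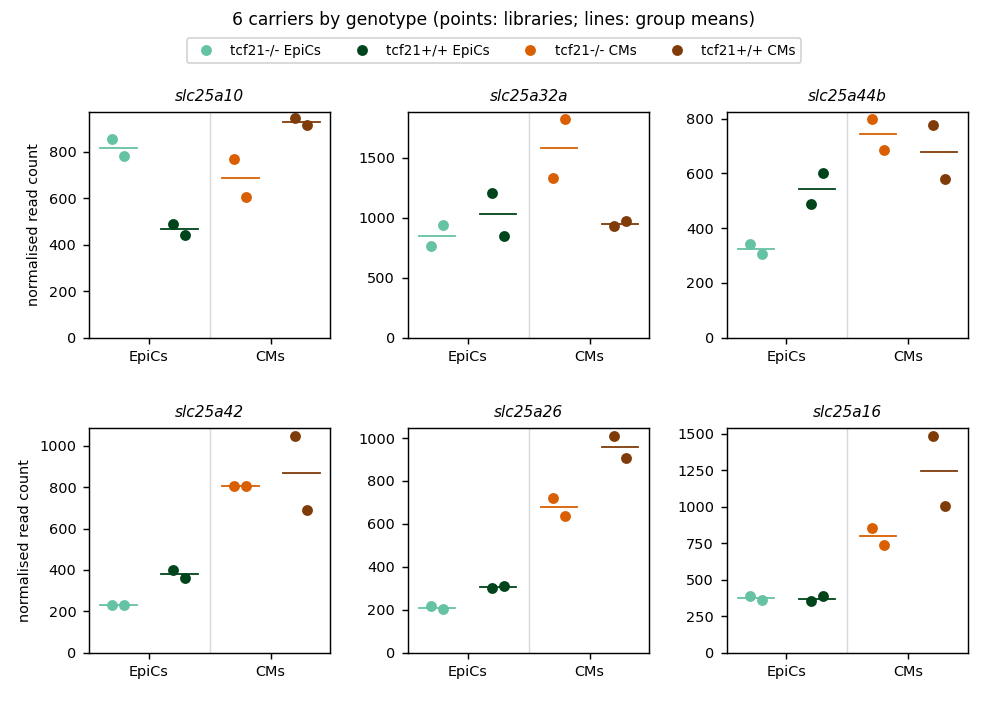
Normalised read counts of 6 *slc25a* genes by genotype, with EpiCs left and CMs right in each panel and *tcf21-/-* left of *tcf21+/+*; points are libraries and lines are means of 2. *slc25a10* is higher in *tcf21-/-* than in *tcf21+/+* EpiCs and lower in *tcf21-/-* than in *tcf21+/+* CMs; no gene shown was called (lowest Padj = 0.229).

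Other members with low P values were likewise below the limit. *slc25a44b* was at 342 and 307 in *tcf21-/-* EpiCs and at 489 and 601 in *tcf21+/+* EpiCs (log2FC −0.74, SE 0.24, Padj = 0.379), and at 799 and 687 in *tcf21-/-* CMs and at 779 and 578 in *tcf21+/+* CMs. *slc25a42* and *slc25a26*, whose values are given above, had log2FC values of −0.72 (Padj = 0.437) and −0.55 (Padj = 0.525) in EpiCs. *slc25a47b* was at 3 and 9 in *tcf21-/-* EpiCs against 0 and 0 in *tcf21+/+* EpiCs (Padj = 0.27). These are a few reads, too few to bound the size of a difference. *slc25a36a*, described above, had a log2FC of 0.36 in EpiCs (Padj = 0.721).

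In CMs, the cofactor carrier *slc25a32a* was at 1333 and 1824 in *tcf21-/-* CMs and at 930 and 968 in *tcf21+/+* CMs (log2FC 0.72, SE 0.24, Padj = 0.316), and at 762 and 937 in *tcf21-/-* EpiCs and at 1204 and 848 in *tcf21+/+* EpiCs (−0.26, Padj = 0.868). The CM genotypes did not overlap and the EpiC genotypes did. *slc25a16* had a log2FC of −0.62 (Padj = 0.365) and *slc25a26* one of −0.49 (Padj = 0.403) in CMs. *slc25a21* and *slc25a17* were at 0.4 (Padj = 0.607) and 0.26 (Padj = 0.775), and the sign of *slc25a17* turned to −0.06 without *tcf21-/-* CMs replicate 2 and to −0.05 without *tcf21+/+* CMs replicate 1. The difference of the genotype effect, EpiCs minus CMs, was −0.97 for *slc25a32a* (Padj = 0.551), −0.88 for *slc25a44b* (0.615), −0.64 for *slc25a42* (0.798), 0.63 for *slc25a16* (0.795) and 0.41 for *slc25a12* (0.838).

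*slc25a22a* was the other member whose genotypes were in opposite order in the cell types without overlap (2 members, and 4.82% of all genes), and is named after its values were seen. It was at 46 and 20 in *tcf21-/-* EpiCs and at 109 and 79 in *tcf21+/+* EpiCs (log2FC −1.58, Padj = 0.581), and at 41 and 26 in *tcf21-/-* CMs and at 6 and 4 in *tcf21+/+* CMs (2.51, SE 0.68, Padj = 0.237). The difference was −4.09 (SE 0.97, Padj = 0.269). 6 members (6.2% of all genes) had both *tcf21-/-* libraries below both *tcf21+/+* libraries in each cell type, namely *slc25a20*, *slc25a24*, *slc25a26*, *slc25a37*, *slc25a44a* and *slc25a46*. Their log2FC values ran between −1.21 for *slc25a37* and −0.22 for *slc25a20* in EpiCs and between −1.55 for *slc25a37* and −0.38 for *slc25a20* in CMs, and none was called. The order in CMs depended on the scaling. In estimated reads the CM genotypes of *slc25a20*, *slc25a26*, *slc25a44a* and *slc25a46* overlapped. The value of 1 read, *tcf21-/-* over *tcf21+/+* CMs, had a log2 ratio of −0.29.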

How the data were processed

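Bulk RNA sequencing of sorted *tcf21-/-* and *tcf21+/+* CMs and EpiCs was analysed from 1 deposited table. Libraries had been prepared by the authors with SMART-Seq v4. Per the labels and the methods of the study, reads were trimmed (Trimmomatic 0.39), aligned to GRCz11 with Ensembl release 99 (STAR 2.7.3a) and counted per gene (featureCounts 1.6.5 of Subread), discarding reads with several positions or several genes, and normalised with DESeq2 (1.26.0). Strand use in counting is not given in the sources used here. The deposited values are a signal, normalised read counts rounded to whole numbers. Dividing out each library's factor, found from the spacing of low values, gave estimated reads. Because the table holds no raw counts, values were tested as log2(value + 1) in limma (3.58.1, R 4.3.3) with an abundance trend, all 8 libraries in 1 fit and 4 groups, for 16077 genes with a mean of at least 10, with Benjamini-Hochberg adjustment. The script was tested on simulated data.

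Members and gene lists were chosen with earlier results of these data known. Values per library are given for the ADP/ATP, phosphate, aspartate/glutamate, oxoglutarate, carnitine and mitoferrin carriers, for up to 8 called members per direction and comparison, and for the 3 members per direction with the lowest P between genotypes (mean of at least 50). Floors and intervals cover counting error or replicate spread only. Alternatives changed the pseudocount, filter, trend, libraries in the fit, scaling, weights, limits or replicates. 1 member is counted in the totals but not reported here by name.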

Additional observations from a re-analysis of the deposited data

How the results depend on the processing

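Between genotypes, no slc25 member was called under any alternative with 1 exception, the 2 members called lower in CMs without *tcf21+/+* CMs replicate 2. For each comparison, only libraries of the groups compared were left out for the ranges given next. Leaving out a library of the other genotype also moved some calls between cell types, as described above, and is not covered. Leaving out each library of the groups compared in turn gave 0 to 0 members called in EpiCs, 0 to 2 in CMs, and 0 to 0 for the difference between them, with medians of −0.16 to 0, −0.39 to −0.04 and −0.02 to 0.33. Between cell types it gave 16 to 19 members in *tcf21-/-* hearts (16 without *tcf21-/-* EpiCs replicate 1; medians 0.72 to 0.78) and 21 to 28 in *tcf21+/+* hearts (medians 0.77 to 0.99). In these fits 1 group held 1 library. Calls over all genes between cell types fell as well, except without *tcf21+/+* CMs replicate 2, where they rose. The lower counts of members are thus not particular to the carriers. The median of the members moved to 0.42 in *tcf21-/-* and 0.27 in *tcf21+/+* hearts without scaling, and to 0.65 in *tcf21-/-* hearts with a pseudocount of 8. Single members turned sign where no call had been made. Leaving out 1 library gave log2FC values of −0.69 to 0.49 for *slc25a37* between *tcf21-/-* cell types (0.25 with cyclic loess) and −0.28 to 0.75 between *tcf21+/+* cell types (−0.38 without scaling), −0.78 to 0.75 for *slc25a3a* between *tcf21+/+* cell types (1.57 with cyclic loess), −0.33 to 3.67 for *slc25a13* between *tcf21-/-* cell types and −0.06 to 0.59 for *slc25a17* between CM genotypes. *slc25a13* was called in *tcf21+/+* CMs with a pseudocount of 8 (2.08, Padj = 0.0208) and with cyclic loess (5.82, Padj = 0.00942). The causes were not tested.

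Over all genes, calls between genotypes ranged from 0 to 133 in EpiCs (31 as reported, 133 with library quality weights), from 0 to 1358 in CMs (59 as reported) and from 0 to 119 for the difference (0 as reported), the last 2 highest without *tcf21+/+* CMs replicate 2. Replicate numbers were not shown to pair the libraries, since the correlations of their deviations were −0.081 to 0.067. With the replicate number as a block, 21 members were called higher and 5 lower in *tcf21-/-* CMs (17.5% and 20.6% of all genes), with *slc25a51b* lost. In *tcf21+/+* CMs 22 were called higher and 5 lower (18.1% and 22.5% of all genes). No member was called between genotypes, where 9 of all genes were called in EpiCs and 1 in CMs. Depth limits members with values of a few reads, such as *slc25a6*, *slc25a24l* and *slc25a29*.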

Other observations

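3 pairs of slc25 members lie within 100 kb of each other. *slc25a5* and *slc25a43* are 592 bases apart on the same strand of chromosome 14, and the log2FC of CMs over EpiCs of *slc25a43*, which was not called, was 0.07 in *tcf21-/-* and 0.13 in *tcf21+/+* hearts. *slc25a29* and *slc25a47a* are 3.87 kb apart on chromosome 20, where *slc25a29* was called in both genotypes and *slc25a47a* in neither. *slc25a20* and *slc25a34* are 74.98 kb apart on chromosome 22, and *slc25a34* had a log2FC of 0.75 in *tcf21-/-* and 1.05 in *tcf21+/+* hearts (Padj = 0.275 and 0.128). These positions are given as values, and whether neighbours share regulation was not tested.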
